A study of Rattus norvegicus with 3 samples.

Results

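The genes described here build the route by which a newly made secretory protein enters the endoplasmic reticulum (ER) and leaves it for the Golgi. They were chosen by name from a rat expression array: signal recognition particle (Srp), Sec, translocon-associated (Ssr), signal peptidase (Spcs), p24 (Tmed), lectin cargo receptor (Lman), COPI (Cop) and Sar1 genes, together with 1 probe listed under a transcript accession alone. This gave 62 probes of 46 genes, out of 41012 probes under 35647 names. The arrays compare the sublingual, the submandibular and the parotid gland of untreated male Wistar rats, 10 weeks old, with 1 array per gland, each hybridised with Cy3-labelled RNA made from 500 ng of total RNA. Per the series' design text 3 rats were used, but whether an array holds RNA of 1 animal or of a pool is not given in the labels. With no replicates, each value describes a single array, no test was made, and precision is limited by having 3 arrays.

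A signal sequence is caught by the signal recognition particle, handed to the Sec61 channel and removed by signal peptidase, and the folded protein is then packed into COPII vesicles by Sar1, Sec23, Sec24, Sec13 and Sec31. The p24 proteins and the mannose-binding lectins select cargo, and COPI vesicles bring receptors and escaped ER proteins back. Salivary acinar cells rely on this route for their whole secretory output, which is rich in amylase and other proteins in serous cells and in mucin glycoproteins in mucous cells.

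Levels below are log2 signals relative to the 75th percentile of the same array, and a difference is the level on the first array minus that on the second. A probe counted as higher or lower when it differed at least 2-fold. If 1 of the compared arrays had the probe no better than near background, its fold is written "at least" and called a lower bound. The dim level was then raised to the lowest level well above background on that array, or kept where it was already higher. Such a bound holds for the background correction used, and with another some of these differences were smaller. Of the 62 member probes, 59 were well above background on the sublingual, 58 on the submandibular-labelled and 56 on the parotid array, where 55.3%, 52.8% and 55.0% of all probes were. The probes below background on all 3 arrays were those of Tmed6 and Sec14l3 and 1 of 2 probes of Sec61g. Every member probe is printed as 1 spot. The only error within an array is that of other probes with repeat spots, whose median SD was 0.09, 0.08 and 0.09 log2 units on the sublingual, submandibular-labelled and parotid array. From repeat spots alone, the SD of a difference between arrays is 0.12. That value leaves out the spread between animals and the error of labelling and hybridisation, so the true error is not known.

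Cell type markers moved with the glands. The summed signal of 5 serous product probes, relative to the 75th percentile, was 92.6 on the sublingual, 168 on the submandibular-labelled and 6290 on the parotid array, with 5 of 5 lower in both glands than in the parotid. That of 7 mucous cell probes was 1458, 1473 and 1.30 in the same order. In either gland 3 of 5 mucous probes compared were higher than in the parotid and 2 probes of Muc5b lower. The mucous genes Muc19 and Agr2 were not well above background in the parotid, nor was Cst5 on the serous list in the other glands. No granular duct probe was measured at least 2-fold higher on the array labelled submandibular than on the parotid array, and so that array is called submandibular-labelled. However, 1 probe of Smr3b was well above background on that array alone (level of -2.66). It was at least 1.62-fold above the parotid, so a 2-fold difference is not excluded, and at least 2.11-fold above the sublingual gland. The summed signal of the 10 granular duct probes was 421, 542 and 1352, and without Smr3a, which carries most of the parotid sum, it was 420, 542 and 476. Myoepithelial probes, of Cnn1, Krt5 and Krt14 alone, were higher than in the parotid (3 of 6 in the sublingual and 5 of 6 in the submandibular-labelled gland, sums 50.8, 63.6 and 21.1). Acta2 and Myh11 were on that list too but were not found on the array by name. Antibody-secreting cell probes were lower than in the parotid (3 of 4 compared in either gland, sums 33.0, 36.1 and 45.6). Sdc1, with levels of 4.82, 5.05 and 4.97 in the same order, carries most of these sums and stayed within 2-fold. Jchain, Mzb1 and Tnfrsf17 were 2.35-fold to 3.43-fold lower in the sublingual and 4.09-fold to 5.90-fold lower in the submandibular-labelled gland. Adipocyte probes were also lower than in the parotid (2 of 3 in the sublingual and 3 of 3 in the submandibular-labelled gland, sums 5.54, 4.11 and 9.71). In whole glands, more cells of a type and more RNA per cell cannot be told apart, and the part of these cell types in the differences below was not tested.

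The members were higher in the sublingual gland than in the parotid more often than probes at large. Of 59 member probes compared, 16 (27.1%) of 13 genes were at least 2-fold higher and 0 lower, against 11.2% higher and 12.6% lower among all 24247 probes compared. With quantile normalization 9 of 59 (15.3%) were higher, against 10.9% of all probes. In the submandibular-labelled gland 15 of 58 (25.9%), again of 13 genes, were higher than in the parotid and 0 lower, against 9.61% higher and 13% lower of 23965 probes. With quantile normalization 11 of 58 (19.0%) were higher, against 10.8%. The median difference of the members was 0.55 in the sublingual and 0.40 in the submandibular-labelled comparison, beside 0.02 and 0.00 for all probes. Both comparisons use the same parotid array. Between the sublingual and the submandibular-labelled gland, 1 of 59 member probes (1.69%) was higher and 0 lower, the background being 1.69% and 0.554%, with a median of 0.02 for members and 0.01 for all probes.

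Brighter probes were higher than in the parotid more often than lower, so the members were also set beside probes of like brightness. Among 7434 probes whose mean level lay between 0.45 and 4.72, the interquartile range of the members' mean levels, 14.9% were higher and 6.78% lower in the sublingual gland than in the parotid, with a median of 0.26. The 29 members in that range had 9 higher (31.0%), 0 lower and a median of 0.55. In the submandibular-labelled gland the figures were 13.0% higher, 6.99% lower and a median of 0.25 for 7436 probes, and 9 of 29 members higher with a median of 0.42.

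**Figure D1:**
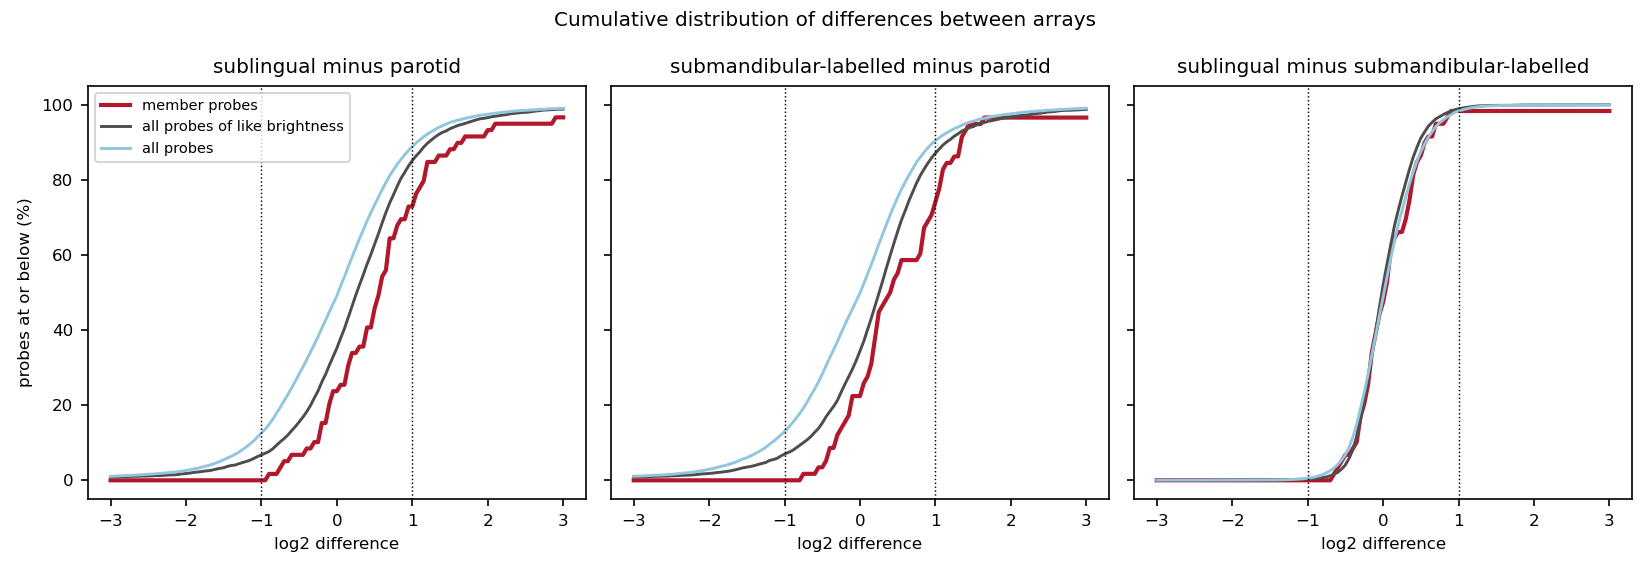
Cumulative share of probes (%) against the log2 difference between 2 arrays, for member probes, all probes of like brightness and all probes. Dotted lines mark 2-fold. In both comparisons with the parotid the member curve lies to the right of all probes up to 2-fold, and between the sublingual and submandibular-labelled arrays the curves nearly coincide, with medians of 0.02 and 0.01.

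The counts differed along the route, without a test of that difference. Of 19 probes for the steps of translocation (signal recognition particle, translocon, translocon-associated complex and signal peptidase), 1 (5.26%) was higher in the sublingual and 0 in the submandibular-labelled gland than in the parotid, with medians of 0.14 and 0.17. Among all probes 11.2% and 9.61% were higher. Of the probes for coats, cargo receptors and SNAREs, 15 of 39 (38.5%) were higher in the sublingual gland. In the submandibular-labelled gland 15 of 38 (39.5%) were higher, and the medians were 0.75 and 0.85. With quantile normalization the contrast was smaller. In the sublingual gland COPII then had 4 of 14 probes higher, p24 proteins 3 of 13 and lectin receptors 1 of 4. COPI had 0 of 6 and SNAREs 0 of 2, against 10.9% of all probes. In the submandibular-labelled gland these were 6 of 13, 3 of 13, 1 of 4, 1 of 6 and 0 of 2, against 10.8%. The translocation counts did not change. Without that normalization, genes with a probe higher in both glands were Sar1a, Sec13, Sec23b, Sec23ip, Sec24d, Tmed4, Tmed7, Lman1l and Copb1. Of these, Sar1a, Sec23b, Tmed7 and Lman1l stayed past 2-fold in both glands under all 5 other processings tried, and Sec13, Sec23ip, Sec24d, Tmed4 and Copb1 each fell short in at least 1 of them. Of 56 members well above background on all arrays, 39 were lowest in the parotid, 10 were highest there and 7 had the parotid between the others. The 10 were the single probes of Sec61a1, Sec61a2, Ssr4, Sec11c, Spcs2, Tmed3 and Lman2l, and 1 probe each of Srp54a, Sec24a and Lman1.

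**Figure D2:**
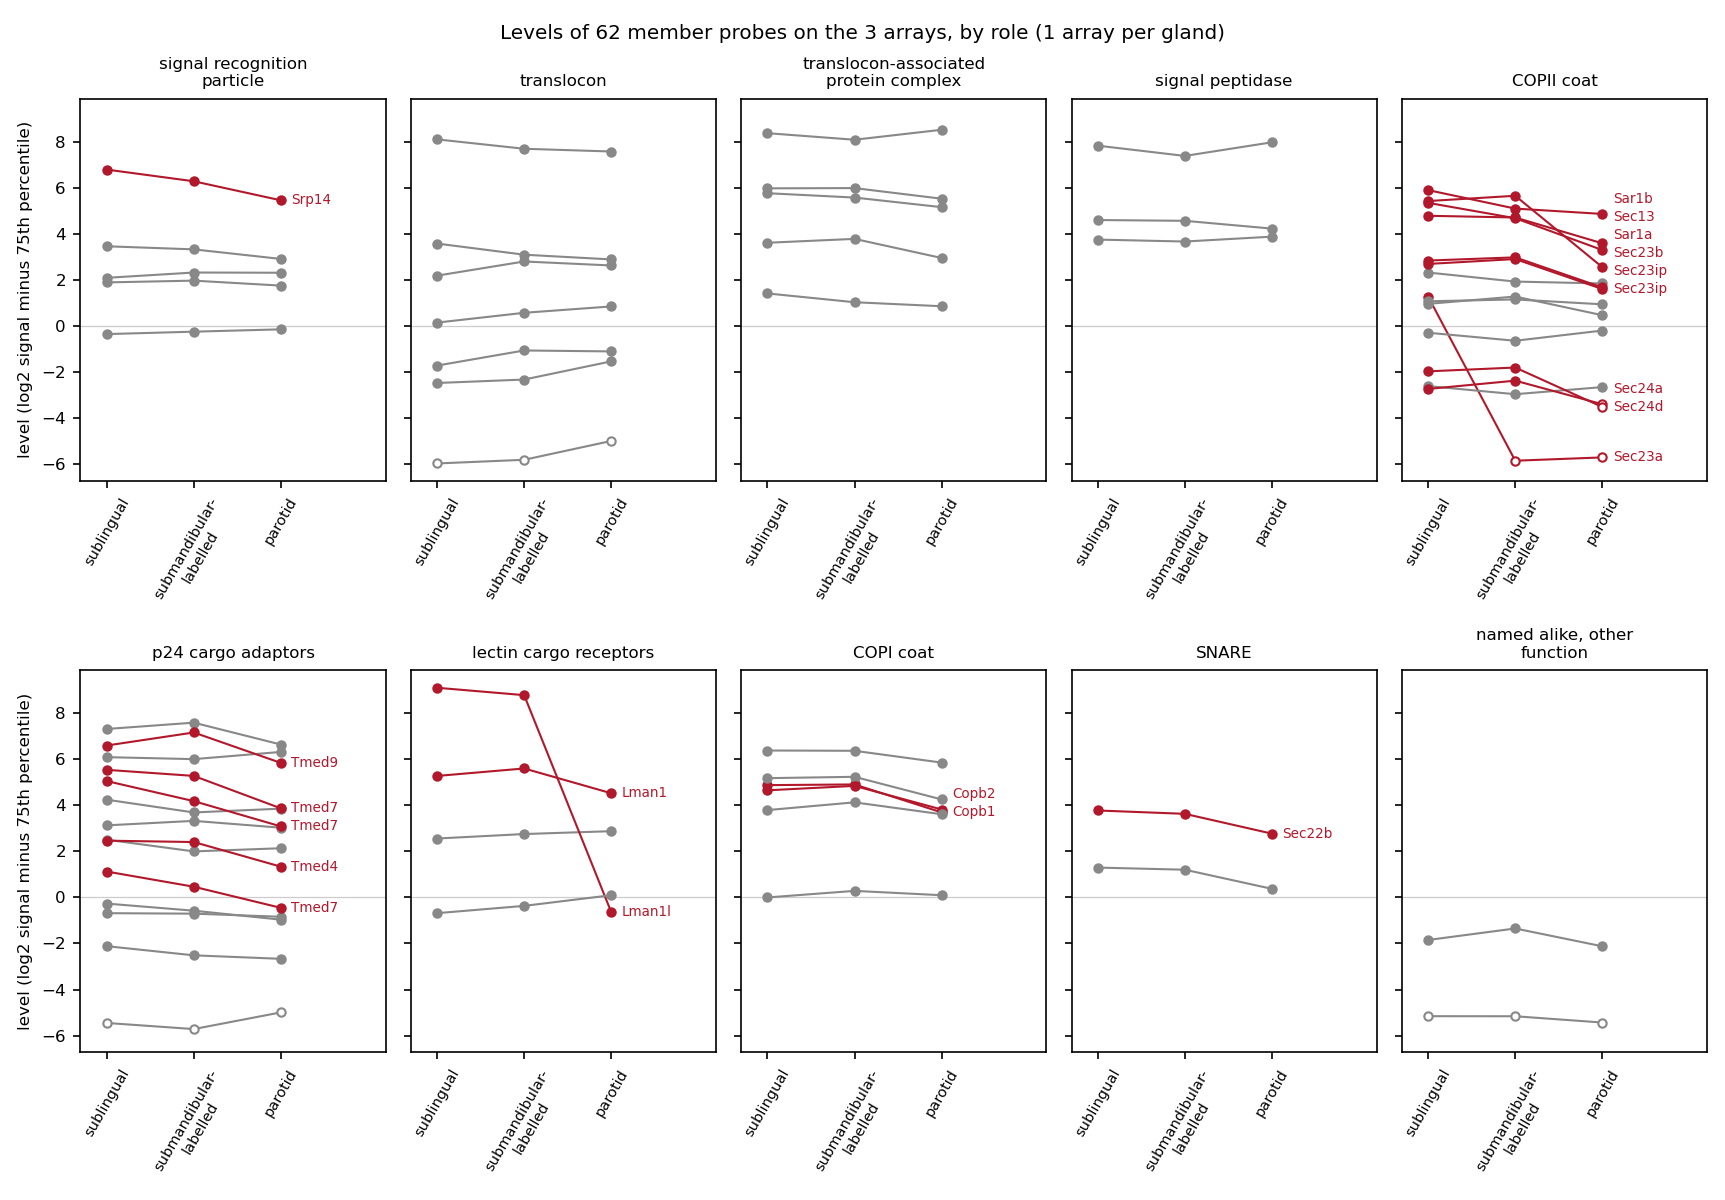
Levels (log2 signal minus the 75th percentile) of the 62 member probes on the sublingual, submandibular-labelled and parotid arrays, 1 panel per role. Red lines are probes at least 2-fold apart between any 2 arrays, named at the right in the order of their parotid levels, and open points were not well above background. Lman1l lies at 9.11 in the sublingual and 8.79 in the submandibular-labelled gland, against -0.64 in the parotid, while all translocon and signal peptidase probes above background stay within 2-fold.

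Promoters of members that stood higher in both glands are shown so that the stretch ahead of each gene can be set beside its values. They run from 250 bases before to 50 bases after the start of transcription, from RefSeq on assembly GRCr8, written 5′ to 3′ on the strand of the gene. Lman1l (chr8:66919535-66919834, minus strand) and Sec23b (chr3:152392433-152392732, plus strand) had the largest differences measured above background in all glands. The probe called Lman1l is matched to that gene by identifier only, and its description also names complexin III. Sec13 (chr4:148446686-148446985, minus strand) and Copb1 (chr1:177872791-177873090, minus strand) build the COPII and COPI coats. Capitals mark every match, on either strand, to the motifs named here. These are CCACG (the 3′ part of the ER stress response element) and ACGTGG (the core that XBP1 is known to bind). TGACGTG (the core of the unfolded protein response element) and TGACGTCA (the cyclic AMP response element) are the others.

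Lman1l: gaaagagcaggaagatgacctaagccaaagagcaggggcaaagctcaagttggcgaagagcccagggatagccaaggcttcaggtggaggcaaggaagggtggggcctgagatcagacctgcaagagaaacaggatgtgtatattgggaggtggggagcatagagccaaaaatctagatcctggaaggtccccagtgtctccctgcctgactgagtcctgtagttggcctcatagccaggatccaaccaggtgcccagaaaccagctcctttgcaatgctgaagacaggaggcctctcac

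Sec23b: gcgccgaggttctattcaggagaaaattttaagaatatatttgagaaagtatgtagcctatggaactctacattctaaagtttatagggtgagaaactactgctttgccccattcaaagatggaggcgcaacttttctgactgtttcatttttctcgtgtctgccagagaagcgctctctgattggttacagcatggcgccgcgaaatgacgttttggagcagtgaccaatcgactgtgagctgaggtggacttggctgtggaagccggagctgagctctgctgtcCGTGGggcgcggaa

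Sec13: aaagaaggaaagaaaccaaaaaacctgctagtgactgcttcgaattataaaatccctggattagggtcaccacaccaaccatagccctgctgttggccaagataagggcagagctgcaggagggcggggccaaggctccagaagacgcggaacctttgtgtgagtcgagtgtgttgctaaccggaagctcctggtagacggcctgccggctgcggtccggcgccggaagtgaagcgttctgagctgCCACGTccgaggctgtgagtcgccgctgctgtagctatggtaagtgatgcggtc

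Copb1: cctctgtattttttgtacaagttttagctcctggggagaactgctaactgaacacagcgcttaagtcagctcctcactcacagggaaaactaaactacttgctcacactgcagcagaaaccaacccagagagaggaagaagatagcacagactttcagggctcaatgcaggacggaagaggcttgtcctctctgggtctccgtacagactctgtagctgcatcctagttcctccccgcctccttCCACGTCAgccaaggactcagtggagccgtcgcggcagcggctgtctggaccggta

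These motifs are known from promoters that answer to ER stress and to the factors XBP1, ATF6 and the CREB3 family, and a match is a description of letters, not a binding site. CCACG lay in 26 of 42 member promoters (61.9%), against 31.6% of all 33469 promoters and 35.5% of 21851 promoters of protein-coding genes. ACGTGG lay in 17 of 42 (40.5%), against 7.84% and 8.32%. TGACGTG lay in 5 of 42 (11.9%), against 1.81% of either set, and TGACGTCA in 1 of 42 (2.38%), against 1.83% and 2.10%. The whole ER stress response element was in 0 of the 42, against 0.0657% of all promoters and 0.0870% of coding ones. Every ACGTGG match holds a CCACG match on the other strand, so the shares of these motifs are nested and not separate results. TGACGTG can overlap both, as in Copb1, and the base composition of the promoters was not compared. Of the genes with a probe higher in both glands, 3 of 7 with a promoter held ACGTGG, and 14 of the other 35 did. CCACG was in 4 of those 7 and 22 of those 35. Sec23b held CCACG alone, 37 bases after its start, and the Lman1l promoter held none of these letters.

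The signal recognition particle, a ribonucleoprotein that binds signal sequences on the ribosome, had 5 probes. Srp14, which pauses elongation together with Srp9, had a level of 6.80 in the sublingual, 6.29 in the submandibular-labelled and 5.46 in the parotid gland. It was highest in the sublingual gland and lowest in the parotid, 2.53-fold apart in the sublingual and 1.78-fold in the submandibular-labelled comparison with the parotid, and was the only member for translocation to pass 2-fold. The other probes, of Srp19, of Srp68 and a pair for Srp54a, which reads the signal sequence, differed from the parotid by -0.22 to 0.55 in the sublingual and -0.10 to 0.42 in the submandibular-labelled gland.

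The translocon is the protein-conducting channel. Sec61b, its beta subunit, had levels of 8.11 in the sublingual, 7.70 in the submandibular-labelled and 7.58 in the parotid gland. This put it 0.53 and 0.12 above the parotid. The Sec61g probe above background had levels of 3.58, 3.10 and 2.89 in the same order, 0.69 and 0.21 above the parotid. Sec61a2, a second form of the pore subunit, had levels of -2.48, -2.33 and -1.54 in the same order. It ran lowest in the sublingual gland and was the member furthest below the parotid in both comparisons, with differences of -0.94 and -0.79 that did not pass 2-fold. Sec61a1, the main pore subunit, had a level of 0.15 in the sublingual, 0.57 in the submandibular-labelled and 0.85 in the parotid gland. Both probes of Sec63, which recruits the chaperone BiP to the channel, were lowest in the sublingual gland, by 0.62 and 0.66 from the submandibular-labelled level. The median of the 6 translocon probes compared was -0.53 in the sublingual and 0.08 in the submandibular-labelled comparison with the parotid, and the second of these changed sign among scalings (-0.07 to 0.08).

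The translocon-associated complex, which helps some signal sequences open the channel, had 0 of 5 probes past 2-fold. With 11.2% and 9.61% of all probes higher than the parotid and 12.6% and 13% lower, 0 of 5 says little. Ssr1, its alpha subunit, had levels of 3.62 in the sublingual, 3.78 in the submandibular-labelled and 2.95 in the parotid gland, which left the parotid lowest by 0.66 and 0.83. Ssr4, its delta subunit, had 8.38, 8.09 and 8.52 in that order, with the parotid highest. The other 3 probes, of Ssr2 and Ssr3, were above the parotid by 0.45 to 0.61 in the sublingual and 0.17 to 0.46 in the submandibular-labelled gland.

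Signal peptidase, which cuts the signal sequence off, also had 0 of 3 probes past 2-fold. Beside the shares of all probes (11.2% and 9.61% higher, 12.6% and 13% lower), 0 of 3 says little too. Sec11c, a catalytic subunit, had levels of 7.83 in the sublingual, 7.39 in the submandibular-labelled and 7.98 in the parotid gland. The submandibular-labelled level was the low one, by 0.59 from the parotid. Sec11a, the other catalytic subunit, was above the parotid by 0.37 in the sublingual and 0.34 in the submandibular-labelled gland, and Spcs2, an accessory subunit, stood 0.13 and 0.21 below it. The sublingual differences of Sec11c (-0.15) and Spcs2 (-0.13) are about as large as the repeat-spot SD of a difference.

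COPII, the coat of vesicles leaving the ER, had 8 of 14 probes past 2-fold in the sublingual and 7 of 13 in the submandibular-labelled gland. Among all probes 11.2% and 9.61% were higher. The COPII median differences from the parotid were 1.06 and 1.02. Under quantile normalization these counts were 4 and 6, and with normexp background correction 7 and 5, with a median of 0.42 in the submandibular-labelled gland. Sar1a, a GTPase that starts the coat, had levels of 5.35 in the sublingual, 4.68 in the submandibular-labelled and 3.30 in the parotid gland. It was 4.14-fold above the parotid in the sublingual and 2.61-fold in the submandibular-labelled gland, and the sublingual level was 1.59-fold above the submandibular-labelled one, short of 2-fold. Sar1b, its paralogue, had levels of 5.90, 5.10 and 4.87 in the same order. The sublingual gland was 2.05-fold above the parotid, a call lost with quantile normalization (difference of 0.67), and the submandibular-labelled gland was 1.17-fold above it. The sublingual level was 1.74-fold above the submandibular-labelled one, short of the threshold.

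The inner coat pairs Sec23, which speeds GTP hydrolysis by Sar1, with Sec24, which binds cargo. Sec23b (probe at chr3:133140391-133140450 in rn4) had signals of 10500 in the sublingual, 11500 in the submandibular-labelled and 1090 in the parotid gland, or levels of 5.43, 5.66 and 2.55. The parotid was the low gland, with folds of 7.34 and 8.61, rank 260 of 24247 and 212 of 23965 probes compared, counted from the highest difference. The parallel gene Sec23a had 3 probes that did not run together. Its first probe had levels of 2.32 in the sublingual, 1.93 in the submandibular-labelled and 1.85 in the parotid gland, and its second had -2.61, -2.96 and -2.66. Neither differed 2-fold between any pair of glands.

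The third Sec23a probe (chr6:79696855-79696914 in rn4) had a level of 1.28 in the sublingual gland and was not well above background in the submandibular-labelled (-5.85) or the parotid gland (-5.71). This put the sublingual gland at least 26.2-fold above the parotid and at least 29.0-fold above the submandibular-labelled gland. With normexp these log2 differences were 3.10 and 3.14, against 4.71 and 4.86. No other member passed 2-fold between the sublingual and the submandibular-labelled gland. Its spot on the sublingual array was uneven: the SD of its pixels was 26.2% of their mean, above 99.4% of 1977 spots whose mean signal differed from it by a ratio of no less than 0.8, either way. The median of those spots was 15.2%. The spot printed above it, for an unrelated sequence, had signals of 917 in the sublingual, 143 in the submandibular-labelled and 27.7 in the parotid gland, with a pixel SD of 26.9% in the sublingual. The second, dim Sec23a probe had a pixel SD of 22.7% on the sublingual array, above 97.9% of 22061 spots of like mean signal. Without the third probe, 15 of 58 members were higher in the sublingual gland than in the parotid, and 0 differed 2-fold between the sublingual and the submandibular-labelled gland.

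Sec24d, a cargo-binding subunit, had levels of -1.97 in the sublingual and -1.81 in the submandibular-labelled gland and was not well above background in the parotid (-3.52). The sublingual gland was at least 2.76-fold above the parotid and the submandibular-labelled gland at least 3.09-fold, calls lost with normexp background correction (differences of 0.24 and 0.42). Sec24a had 3 probes of different direction. One had levels of -2.74 in the sublingual and -2.38 in the submandibular-labelled gland and was not well above background in the parotid (-3.40). The lower bounds over the parotid were 1.59-fold in the sublingual and 2.03-fold in the submandibular-labelled gland, and the second became a difference of 0.08 with normexp. The other probes had levels of -0.29 in the sublingual, -0.64 in the submandibular-labelled and -0.20 in the parotid gland, and of 1.07, 1.15 and 0.94, all within 2-fold.

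The outer coat and its helpers followed. Sec13, which forms the outer cage with Sec31, had levels of 4.79 in the sublingual, 4.71 in the submandibular-labelled and 3.59 in the parotid gland, with folds of 2.29 and 2.18 over the parotid, both short of 2-fold with quantile normalization (differences of 0.84 and 0.92). Sec31a was within 2-fold, 0.49 and 0.81 above the parotid. Sec23ip, which joins the inner to the outer coat at exit sites, had a pair of probes on overlapping stretches. They had levels of 2.84 and 2.69 in the sublingual, 2.98 and 2.91 in the submandibular-labelled, and 1.67 and 1.60 in the parotid gland, and gave folds of 2.25 and 2.13 in the sublingual and 2.48 and 2.47 in the submandibular-labelled comparison. The sublingual calls were lost with quantile normalization (0.98 and 0.90).

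The p24 proteins, which cycle between ER and Golgi as cargo adaptors, had 4 of 13 probes higher in each comparison. This stands beside 11.2% and 9.61% of all probes. In the sublingual comparison the 4 were all 3 probes of Tmed7 and the Tmed4 probe. Medians were 0.68 in the sublingual and 0.39 in the submandibular-labelled comparison with the parotid. Tmed7 had 3 probes, with levels of 5.55, 5.06 and 1.13 in the sublingual, 5.28, 4.19 and 0.47 in the submandibular-labelled, and 3.87, 3.09 and -0.45 in the parotid gland. The sublingual gland was highest and the parotid lowest at each probe, with folds over the parotid of 3.19, 3.92 and 2.99 in the sublingual and 2.66, 2.14 and 1.89 in the submandibular-labelled gland. Tmed4 had levels of 2.47 in the sublingual, 2.41 in the submandibular-labelled and 1.34 in the parotid gland, 2.19-fold and 2.10-fold above the parotid, and short of 2-fold with quantile normalization (0.94 and 0.91) and, in the submandibular-labelled gland, with normexp (0.96).

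Tmed9 had the submandibular-labelled gland highest. Its probes had levels of 7.32 and 6.60 in the sublingual, 7.60 and 7.17 in the submandibular-labelled, and 6.64 and 5.85 in the parotid gland. Against the parotid the folds were 1.60 and 1.69 in the sublingual and 1.93 and 2.50 in the submandibular-labelled gland. Both probes of Tmed2, a partner of Tmed10, were highest in the sublingual gland, 0.37 and 0.39 above the parotid, while the submandibular-labelled gland lay 0.14 and 0.17 below it. The remaining probes of Tmed1, Tmed3, Tmed5 and Tmed10 differed from the parotid by -0.23 to 0.70 in the sublingual and -0.31 to 0.39 in the submandibular-labelled gland, and of these only Tmed3 was highest in the parotid.

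The lectin cargo receptors carry glycoproteins out of the ER by their mannose-rich glycans. The probe listed by accession alone (chr8:61361445-61361504 in rn4) matched by its gene identifier to Lman1l, a relative of the receptor Lman1, and its description in the files also names complexin III, whose gene lies next to Lman1l in RefSeq. Which of these transcripts the probe reports was not settled, and it is called Lman1l throughout by its gene identifier. It had signals of 135000 in the sublingual, 101000 in the submandibular-labelled and 119 in the parotid gland, and levels of 9.11, 8.79 and -0.64. Both of these glands stood far above the parotid, 865-fold in the sublingual and 692-fold in the submandibular-labelled gland. The probe ranked 4 of 24247 and 5 of 23965 from the highest difference, while the sublingual and the submandibular-labelled gland were 1.25-fold apart.

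Among 12078 probes, Lman1l included, well above background in all glands and named by a symbol, the 5 other genes whose centred levels lay nearest to those of Lman1l were Sel1l3, Kcne1, Ddc, Bpifb2 and A2ml1. Their distances were 0.47, 0.82, 0.97, 1.07 and 1.13 log2 units over the 3 arrays, and Bpifb2 is also on the mucous cell list above. Sel1l3, the nearest, had levels of 7.94 in the sublingual, 7.94 in the submandibular-labelled and -1.15 in the parotid gland. With 3 arrays this likeness says little beyond a low parotid level.

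Lman1, which carries clotting factors and other glycoproteins together with Mcfd2, had probes that disagreed. The first had levels of 5.28 in the sublingual, 5.61 in the submandibular-labelled and 4.53 in the parotid gland, and passed 2-fold in the submandibular-labelled comparison (2.11-fold, and 1.68-fold in the sublingual), though not with quantile normalization (0.89). The second had levels of 2.56, 2.76 and 2.88 in the same order, with the parotid highest. The differences of the pair from the parotid lay 1.07 apart in the sublingual and 1.20 apart in the submandibular-labelled comparison, so that the direction of Lman1 depends on the probe. Lman2l, a lectin that stays in the ER, was 0.78 below the parotid in the sublingual and 0.46 below it in the submandibular-labelled gland. The median of the 4 lectin probes in the sublingual comparison (0.22) changed sign among scalings (-0.11 to 0.30).

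COPI, the coat of the return route, had 1 of 6 probes higher in the sublingual and 2 of 6 in the submandibular-labelled gland than in the parotid, where 11.2% and 9.61% of all probes were higher, with medians of 0.68 and 0.75. These counts were 2 and 3 with normexp and 0 and 1 with quantile normalization. Copb1, its beta subunit, had levels of 4.88 in the sublingual, 4.91 in the submandibular-labelled and 3.70 in the parotid gland, and folds of 2.27 and 2.32 over the parotid, the first lost with quantile normalization (0.81). Copb2, the beta prime subunit, had levels of 5.18 and 4.66 in the sublingual, 5.24 and 4.85 in the submandibular-labelled, and 4.26 and 3.82 in the parotid gland. The parotid was the low gland at both probes, with folds of 1.90 and 1.78 in the sublingual and 1.98 and 2.04 in the submandibular-labelled comparison, so these sit on either side of the threshold, and the 2.04-fold call was lost with quantile normalization (0.79). Cope, the epsilon subunit, had levels of 6.39 in the sublingual, 6.37 in the submandibular-labelled and 5.86 in the parotid gland, within 2-fold. Copg1 and Copz1 were also within 2-fold, with differences of -0.10 to 0.52.

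Sec22b, the SNARE that ER-derived vesicles carry for fusion, had levels of 3.78 in the sublingual, 3.63 in the submandibular-labelled and 2.77 in the parotid gland. The parotid was the low gland, by 2.01-fold, a call lost with quantile normalization (0.68), and 1.82-fold. Its relative Sec22a was 1.90-fold and 1.78-fold above the parotid. Sec14l2, a lipid-binding protein taken in by its name, had levels of -1.85 in the sublingual, -1.35 in the submandibular-labelled and -2.12 in the parotid gland, within 2-fold.

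Near the threshold, the lowest member past 2-fold was Sec22b (2.01-fold) in the sublingual and the dim Sec24a probe (2.03-fold) in the submandibular-labelled comparison with the parotid. The highest member short of it was the same Copb2 probe in both, at 1.90-fold and 1.98-fold. Between the sublingual and the submandibular-labelled gland, the highest member short of it was a Tmed7 probe at 1.83-fold.

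**Figure D3:**
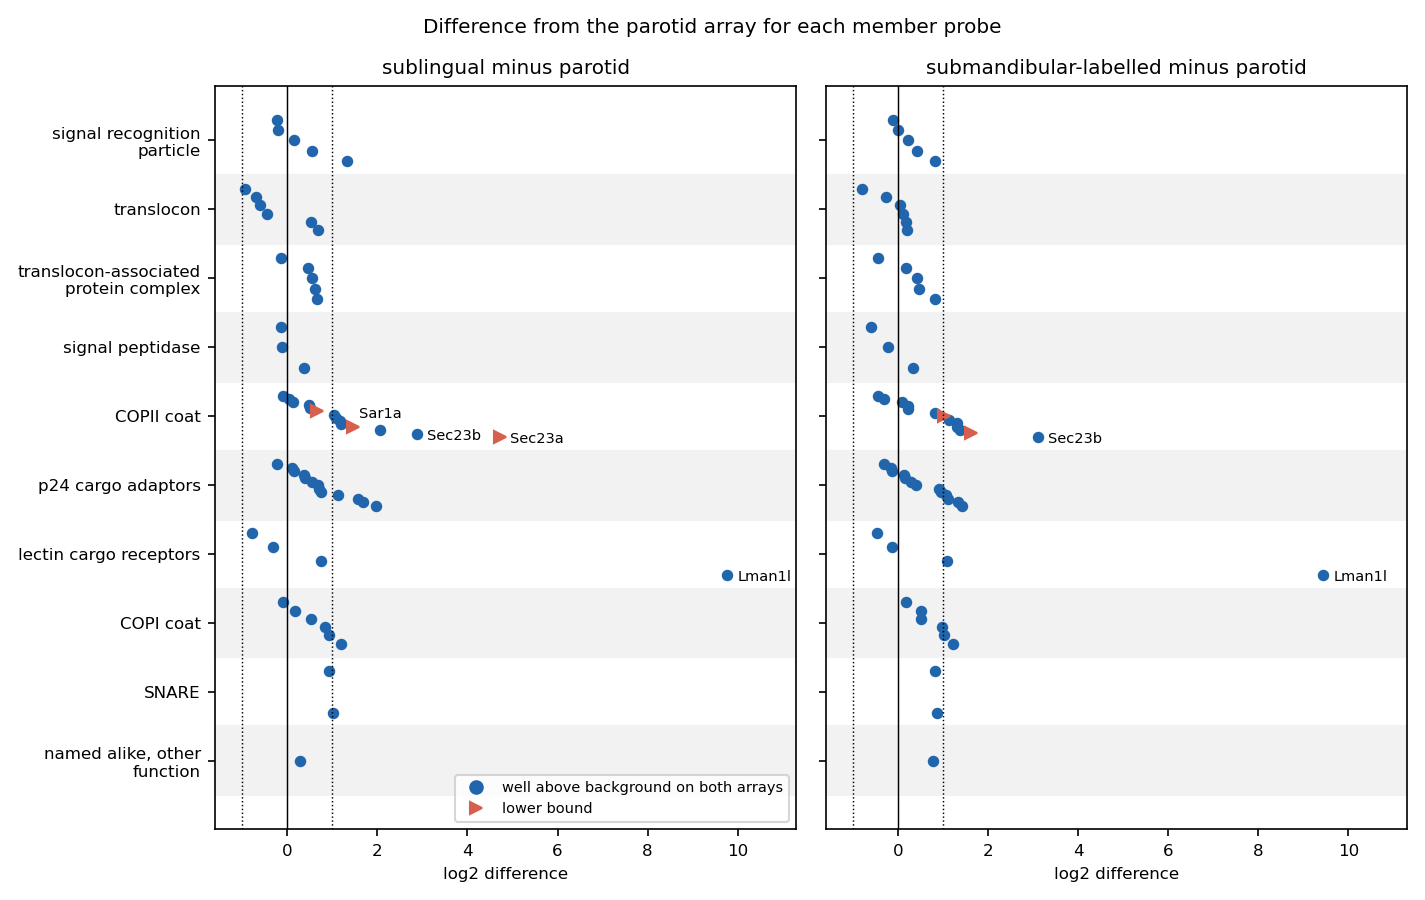
Log2 difference from the parotid array for each member probe compared, in the sublingual (left) and the submandibular-labelled gland (right), in rows by role. Triangles are lower bounds, dotted lines mark 2-fold, and 0 members lie past 2-fold on the lower side. Lman1l is far to the right in both panels (9.76 and 9.44). Sec23b lies at 2.88 and 3.11, to the left of the Sec23a bound (4.71) in the sublingual panel, and the translocation rows stay mostly between the dotted lines.

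Other genes of the route, taken from a list of 64 of which 60 were found on the array with 91 probes, gave 25 probes higher and 1 lower than the parotid in the sublingual gland and 18 higher and 2 lower in the submandibular-labelled gland, with medians of 0.51 and 0.54. These are 27.5% and 19.8% higher, against 11.2% and 9.61% of all probes. Between the sublingual and the submandibular-labelled gland, 0 of 91 differed 2-fold. Partners of the signal recognition particle and the channel had 0 of 11 past 2-fold in either comparison, and their medians were 0.21 and 0.35. Oligosaccharyltransferase, which adds N-glycans at the channel, had 3 and 2 of 13 higher. COPI and Arf partners had 4 and 3 of 20 higher, and the KDEL receptors, which return ER proteins, 1 of 4 in each comparison.

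COPII and exit-site partners were the list with the highest share among these, 8 of 16 probes higher and 1 lower in the sublingual and 6 of 16 higher and 1 lower in the submandibular-labelled gland, with medians of 0.90 and 0.78. Preb, the exchange factor that loads Sar1 with GTP, had levels of 3.59 in the sublingual, 3.64 in the submandibular-labelled and 0.95 in the parotid gland, 6.24-fold and 6.45-fold above the parotid. The 3 probes of Tfg, which organises exit sites, were 2.11-fold to 3.18-fold above it in the sublingual and 2.45-fold to 2.88-fold in the submandibular-labelled gland. Mcfd2, the soluble partner of Lman1, had levels of 0.92 in the sublingual, 1.17 in the submandibular-labelled and 2.70 in the parotid gland, 3.43-fold and 2.90-fold lower than in the parotid. These genes were picked for naming after their values were seen, as were the transcription factors named below.

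SNAREs and tethers between ER and Golgi had 9 of 27 probes higher in the sublingual gland than in the parotid. In the submandibular-labelled gland 6 of 27 were higher and 1 lower. Among all probes 11.2% and 9.61% were higher, and the medians of the SNAREs and tethers were 0.72 and 0.61. Clathrin coat genes, which serve later steps of traffic, had 3 of 26 higher and 1 lower in the sublingual and 2 of 26 higher and 0 lower in the submandibular-labelled gland, shares of higher probes close to those of all probes. Fewer of them were lower than among all probes (12.6% and 13%), and their medians of 0.47 and 0.49 were near those of the members. Transcription factors known to set secretory capacity had 3 of 11 probes higher and 1 lower in the sublingual and 5 of 11 higher and 1 lower in the submandibular-labelled gland. Spdef, a factor of mucous and goblet cells, had levels of 7.98 in the sublingual, 7.96 in the submandibular-labelled and 4.67 in the parotid gland. Creb3l1, a membrane-bound factor known from secretory cells such as osteoblasts, had levels of 4.77, 5.09 and 3.45 in the same order, 2.50-fold and 3.11-fold above the parotid. Bhlha15, a factor of serous acinar cells, had 3.35, 3.74 and 5.14, 3.48-fold and 2.65-fold lower than in the parotid. Creb3l4 was 6.77-fold and 4.54-fold above the parotid. Creb3l3 (-0.69 and -0.42) and Atf6 (-0.54 and -0.12) were below it within 2-fold. Creb3l2 was also below it, by at least 0.94 in the sublingual and by 0.04 in the submandibular-labelled gland. Of the 11 genes listed 10 were found on the array, and Xbp1 was not.

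**Figure D4:**
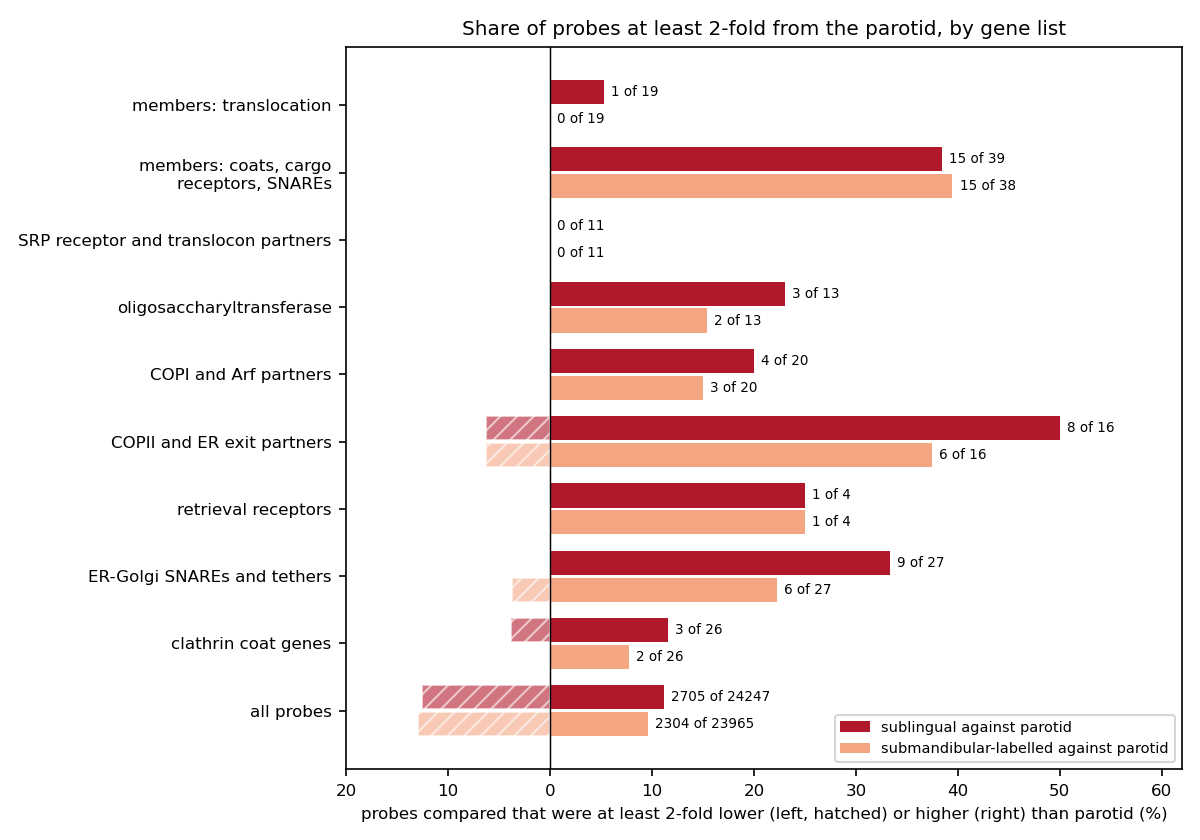
Share of probes compared (%) that were at least 2-fold higher (right) or lower (left, hatched) than the parotid, in the sublingual and the submandibular-labelled gland, for the members in 2 groups, 7 lists of other genes and all probes. The counts stand beside the bars for higher probes: 15 of 39 and 15 of 38 for members of coats, cargo receptors and SNAREs, against 1 of 19 and 0 of 19 for members of translocation. With quantile normalization the counts for coats, cargo receptors and SNAREs were lower in both comparisons, and those for translocation were the same.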

How the data were processed

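RNA of 3 rat salivary glands was measured on 3 one-colour Agilent arrays and grouped by the gland in the labels. Intensity values were deposited as read by Feature Extraction 10.1.1.1 with protocol GE1-v5_10_Apr08 on design 014879 (coordinates in rn4), with spatial and multiplicative detrending, per the file headers. The deposited files also flag outlier, saturated and well-above-background spots (0 spots were saturated). The authors also deposited a table of linear ratios, 1 per spot, each of which equals the processed signal divided by 250, 236 and 190 for the sublingual, submandibular-labelled and parotid array (range of at most 0.0142 in log2 for spots above 1000). The medians of its columns are 0.128, 0.122 and 0.152, genes were not centred, and the steps that made it are not stated.

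Levels are log2 of the processed signal minus the 75th percentile of each array over probes (244, 228 and 186 in signal). Outlier spots (73, 79 and 68) were left out, as were control spots. A probe was well above background when most of its spots were, and the lowest such level was -3.74, -3.58 and -3.43. For a lower bound, the dim array's value is this lowest level or its own level, whichever is higher. The median difference of the 19883 probes measured above background in all glands was 0.06 for both comparisons with the parotid and -0.01 between the other glands.

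All 62 member probes were matched to RefSeq genes (GRCr8, for names alone), and 60 had coordinates. The probe added by accession had been planned among COPII and was moved to the lectin receptors once its description was read. Full levels were given for members past 2-fold, the brightest and the most different probe of each role, genes whose probes disagreed 2-fold, and the Sec23 and Sec24 genes with Lman1l. The members and lists were chosen with earlier results of these data known. Each comparison was repeated with normexp (offset 50, limma 3.58.1 in R 4.3.3), other scalings, the value table, other filters and other thresholds, and the counting was tested on simulated data. All arrays lay on 1 slide. Python 3.11.15, numpy 2.4.6, pandas 2.3.3 and matplotlib 3.10.9 were used.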

Additional observations from a re-analysis of the deposited data

How the results depend on the processing

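No paired analysis was possible because each gland has 1 array. Under the 5 other processings (normexp, median centring, quantile normalization, the deposited values, and no bounds), 0 member probes were 2-fold lower than the parotid in either comparison, and 0 called probes changed sign. Of the called probes, 8 of 16 in the sublingual and 8 of 15 in the submandibular-labelled comparison with the parotid stayed past 2-fold under all 5. The 8 in the sublingual comparison include the third Sec23a probe, whose spot was uneven. Quantile normalization gave 9 of 59 higher in the sublingual gland (15.3%, background 10.9%) with a median of 0.37, and 11 of 58 (19.0%) in the submandibular-labelled gland. At 1.5-fold, 27 of 59 probes (45.8%) were higher and 4 lower in the sublingual gland than in the parotid. All probes gave 23.2% and 25.1%. In the submandibular-labelled gland 24 of 58 (41.4%) were higher and 2 lower, against 21.2% and 24.9%. The sublingual gland had 5 of 59 (8.47%) higher and 2 lower than the submandibular-labelled gland, against 9.2% and 4.5%. At 4-fold, 4 (6.78%) and 2 (3.45%) were higher than the parotid, against 2.55% and 2.45% of all probes. Between the sublingual and the submandibular-labelled gland the count of 1 became 0 among probes well above background on all 3 arrays, with 1 probe per gene, and without the uneven Sec23a probe (added after seeing the data), each of which leaves that probe out. The median between these glands was -0.09 with quantile normalization, against 0.02. The COPII median in the submandibular-labelled comparison was 0.42 with normexp, against 1.02; the cause was not tested. Normexp also changed the split of all probes against the parotid, to 1705 higher and 1074 lower in the sublingual gland, against 2705 and 3054. Lman1l stayed between 9.23 and 9.76 in the sublingual and between 8.88 and 9.79 in the submandibular-labelled comparison, and Sec23b between 2.51 and 2.91 and between 2.95 and 3.11. The comparison over probes of like brightness and the granular duct sum without Smr3a were also added after seeing the data. Folds of probes near background, such as Sec24d and Sec24a and the third Sec23a probe, are limited by signal over background.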
